A study of Homo sapiens with 8 samples.

Results

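Chemokines are small secreted proteins that draw leukocytes along a gradient by binding G-protein-coupled receptors, and their CC and CXC classes are named for the spacing of the cysteines near the start of the protein. The 10 chemokine genes described here are CCL2, CCL5, CCL20, CXCL1, CXCL2, CXCL3, CXCL8, CXCL10, CXCL11 and CXCL16, measured by 16 probe sets that name a single gene, out of 19775 genes and 41091 such probe sets on the array. The genes were chosen on their measured differences after XBP1 knockdown, in which CCL5 had the largest rise of all genes in MDA-MB-231, so their knockdown values are a description: whether the fit over all genes called a member is stated as a property of that fit, with no p-value, and supports nothing.

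The cells were the luminal, oestrogen receptor-positive breast cancer line T47D and the mesenchymal, triple-negative breast cancer line MDA-MB-231. Each line carried a lentiviral control hairpin (shCtrl) or a lentiviral hairpin against XBP1 (shXBP1), which left 4 groups with 2 arrays each, 8 arrays in all. XBP1 is the transcription factor that the endoplasmic reticulum stress sensor IRE1 switches on by splicing its mRNA. All 4 groups shared puromycin selection and 24 h in 0.1% oxygen in medium without glucose. The series also names untreated cells, which were not analysed here, so no value below is an effect of the stress itself. The labels name 1 hairpin per target, and the knockdown is therefore read from a single XBP1 hairpin in each line. Replicates are described as biological, but no further detail is given, so p-values measure the spread between these arrays, which may in part be technical.

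The members fall into groups by the cells they attract. CCL5, also called RANTES, attracts T cells and monocytes, and CCR1 is among its receptors. CXCL10 and CXCL11 are typically induced by interferon and act on T cells through CXCR3. CXCL1, CXCL2, CXCL3 and CXCL8 (interleukin-8) attract neutrophils through CXCR2, and CXCL8 also binds CXCR1. CXCL16 is made as a membrane-bound protein, can be cleaved to a soluble form and binds CXCR6. CCL2 attracts monocytes through CCR2, and CCL20 attracts cells that carry CCR6. Many of these genes are textbook targets of NF-kB, and several carry AU-rich elements that shorten the life of their mRNA.

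The proximal promoters show which motifs of such factors each member carries. The RefSeq table of GRCh38.p14 promoters matched 7 members, CCL20, CXCL1, CXCL2, CXCL3, CXCL8, CXCL10 and CXCL11. CXCL8, CXCL10 and CXCL11 are printed, a choice made with their values known, because CXCL8 was lower and CXCL11 higher after knockdown in MDA-MB-231, while CXCL10, the direct neighbour of CXCL11, was called neither way. The 250 bases before each start site are CXCL8 at chr4:73740319-73740568 on the plus strand, CXCL10 at chr4:76023498-76023747 on the minus strand and CXCL11 at chr4:76036071-76036320 on the minus strand. Each is written 5′ to 3′ along the gene, and capitals mark matches to the kappaB, AP-1 and ISRE motifs.
CXCL8: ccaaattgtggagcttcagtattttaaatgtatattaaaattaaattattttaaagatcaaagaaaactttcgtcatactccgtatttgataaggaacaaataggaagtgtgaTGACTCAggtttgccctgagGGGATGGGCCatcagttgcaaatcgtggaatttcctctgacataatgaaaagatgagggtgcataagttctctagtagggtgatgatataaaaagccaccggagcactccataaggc
CXCL10: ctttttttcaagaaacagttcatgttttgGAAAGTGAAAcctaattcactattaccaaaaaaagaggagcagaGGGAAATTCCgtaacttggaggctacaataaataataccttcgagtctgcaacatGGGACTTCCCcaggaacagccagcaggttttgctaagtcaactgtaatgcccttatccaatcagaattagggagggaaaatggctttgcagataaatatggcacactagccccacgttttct
CXCL11: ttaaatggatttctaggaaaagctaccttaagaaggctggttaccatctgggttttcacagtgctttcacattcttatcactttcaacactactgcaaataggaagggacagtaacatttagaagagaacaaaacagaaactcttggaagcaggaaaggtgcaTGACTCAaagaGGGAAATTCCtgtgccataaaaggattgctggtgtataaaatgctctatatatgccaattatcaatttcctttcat

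Motifs were searched on both strands. The NF-kB pattern, GGGA followed by any 4 bases and CC, was found in 7 of 7 member promoters and in 22.6% of all 35116 promoters of the same length. CXCL1, CXCL2 and CXCL3 are close copies with the same match, GGGAATTTCC, at 79, 78 and 79 bases before the start. The 7 promoters are therefore not independent. The AP-1 site TGANTCA, which reads the same on both strands apart from its middle base, was found in CXCL8 and CXCL11, 2 of 7, against 6.57% of all promoters. The interferon-stimulated response element (ISRE), GAAA and again GAAA with any 2 bases between, was found in CXCL10, 1 of 7, against 3.02% of all promoters. The UPRE core TGACGTG, which XBP1 can bind, was found in 0 of 7 and in 1.68% of all promoters. The longer ER stress element ERSE was likewise found in 0 of 7, against 0.074%. The hypoxia response core ACGTG, which is contained in the UPRE core and is not capitalised, was found in CXCL10, 1 of 7, against 18.5%. These are letter matches within 250 bases, and binding was not measured.

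Values are log2 expression after robust multi-array averaging (RMA), so 1 unit is a 2-fold step. The median of all probe sets over the 8 arrays was 5.96, and values ran from 2.75 to 15.6. Array medians lay between 5.87 and 5.91, and replicate arrays correlated at 0.996 to 0.998 over the 19775 genes, each by its brightest probe set. The deposited values carry no detection call, so a low level cannot be told apart from background. Averaged over its probe sets XBP1 differed by -2.69 in T47D and -1.83 in MDA-MB-231, against -5.15 and -3.85 for its brightest probe set. That probe set stood at 12.41 and 12.56 in T47D shCtrl, 7.52 and 7.16 in T47D shXBP1, 10.83 and 10.69 in MDA-MB-231 shCtrl and 7.13 and 6.69 in MDA-MB-231 shXBP1. Luminal markers had mean levels of 13.2 to 13.5 in T47D and 7.42 to 7.84 in MDA-MB-231, and mesenchymal markers 5.81 to 5.89 and 10.5 to 10.8. Leukocyte markers, measured because leukocytes are a major source of chemokines, had mean levels of 5.11 to 5.37 in the 4 groups for 9 of 10 genes, and PTPRC (CD45) ranged from 3.88 to 4.09. The ACTB 3′ minus 5′ signal, a sign of RNA integrity, averaged 1.26 in MDA-MB-231 shCtrl and 0.999 in MDA-MB-231 shXBP1, against 1.00 and 1.12 in T47D. That of GAPDH averaged 0.302 in MDA-MB-231 shCtrl and 0.312 in MDA-MB-231 shXBP1, against 0.283 and 0.220 in T47D shCtrl and shXBP1. The part of either signal in the results was not tested. In such bulk samples, fewer cells that express a gene and less RNA per cell cannot be told apart.

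CCL5 was near the middle of all probe sets in 3 groups and bright in the MDA-MB-231 cells with the XBP1 hairpin. Its brightest probe set (1555759_a_at) read 6.03 and 5.98 in T47D shCtrl, 6.12 and 6.01 in T47D shXBP1, 6.003 and 6.389 in MDA-MB-231 shCtrl, and 11.22 and 10.91 in MDA-MB-231 shXBP1. The last 2 arrays stood far above the other 6, which overlapped one another. The mean lay at the 52.0, 52.6 and 54.9 percentile of probe sets in the first 3 groups and at the 94.9 percentile in MDA-MB-231 shXBP1. The knockdown difference in MDA-MB-231 was 4.87 log2 units (SE 0.15), a 29.2-fold higher level, which ranked first among the rises of all 19775 genes. In T47D the same difference was 0.06 (SE 0.15), at rank 7717.

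The other probe sets of CCL5 gave the same direction in MDA-MB-231 with different sizes. Probe set 204655_at read 6.70 and 6.49 with the control hairpin and 10.53 and 10.13 with the XBP1 hairpin, a difference of 3.73 (SE 0.15) or 13.3-fold. Probe set 1405_i_at read 5.01 and 4.61 and then 10.33 and 10.04, a difference of 5.37 (SE 0.17) or 41.4-fold. The control levels of the 3 probe sets differ, and a dimmer baseline goes with the larger fold. In T47D, 204655_at read 5.85 and 5.78 with the control hairpin and 6.19 and 6.12 with the XBP1 hairpin, without overlap, but its difference of 0.34 was not called over all probe sets.

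**Figure D1:**
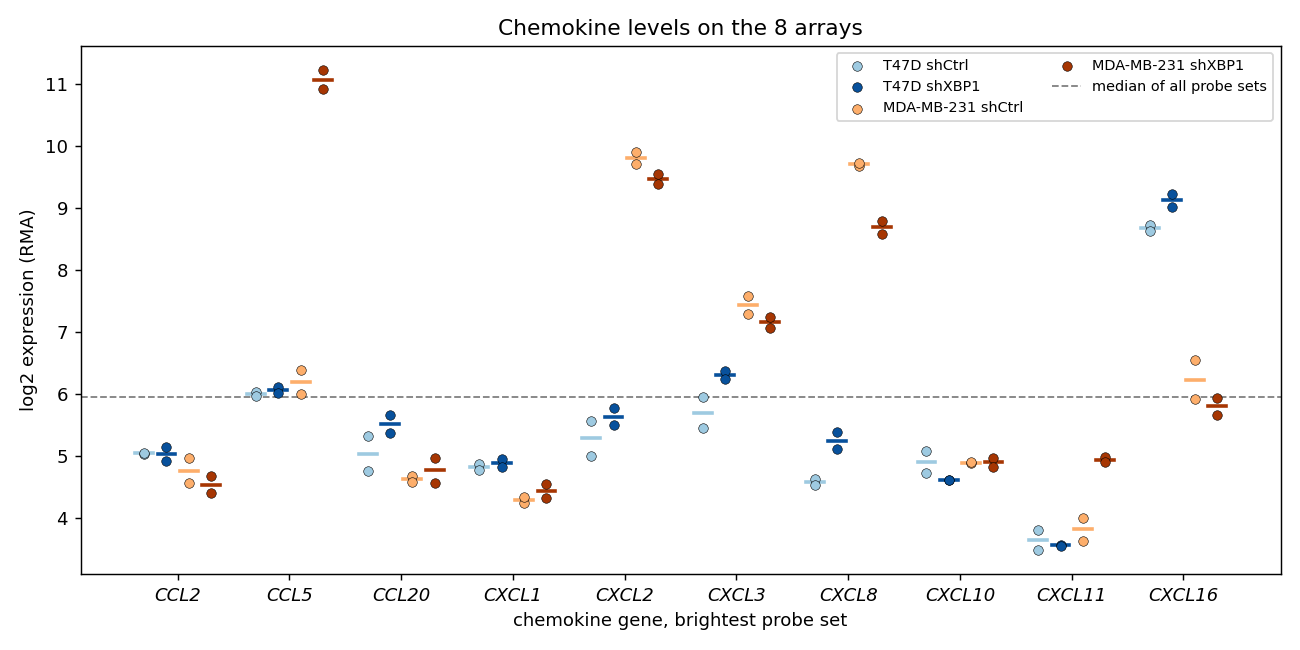
Log2 expression of the 10 chemokine genes (brightest probe set of each) on the 8 arrays, with a point per array, a bar at each group's mean of 2 arrays and a dashed line at the median of all probe sets, 5.96. CCL5 stands at 11.22 and 10.91 in MDA-MB-231 shXBP1 and below 6.5 on the other 6 arrays, while CXCL2 and CXCL8 are higher in all 4 MDA-MB-231 arrays than in the T47D arrays.

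CXCL11 was higher after XBP1 knockdown in MDA-MB-231 at a much lower level of signal, and CXCL10 was not. CXCL11 (210163_at) read 3.81 and 3.49 in T47D shCtrl, 3.58 and 3.56 in T47D shXBP1, 4.01 and 3.64 in MDA-MB-231 shCtrl, and 4.99 and 4.91 in MDA-MB-231 shXBP1. Only the MDA-MB-231 shXBP1 arrays lay above the rest, and all 8 were under the median of all probe sets. The difference in MDA-MB-231 was 1.12 (SE 0.15), 2.18-fold, and that in T47D was -0.08 (SE 0.15). Its other probe set (211122_s_at) read 3.63 and 3.52 in MDA-MB-231 shCtrl and 5.85 and 5.62 in MDA-MB-231 shXBP1, a difference of 2.16 (SE 0.12) or 4.47-fold. Its T47D arrays read 3.47 and 3.32 with the control hairpin and 3.25 and 3.28 with the XBP1 hairpin.

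CXCL10, the next gene on the chromosome and another CXCR3 ligand, stayed between 4.61 and 5.09 on all arrays. It read 4.74 and 5.09 in T47D shCtrl and 4.61 and 4.62 in T47D shXBP1, a difference of -0.30 (SE 0.13) that was called only without T47D shCtrl replicate 1 (-0.48). In MDA-MB-231 it read 4.89 and 4.91 with the control hairpin and 4.97 and 4.83 with the XBP1 hairpin, a difference of 0.01 (SE 0.13). Both CXCL10 and CXCL11 were under the median of all probe sets on every array. Of the printed promoters only that of CXCL10 has an ISRE match, and whether the match bears on these values was not tested.

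CXCL8 moved in opposite directions in the lines. Probe set 202859_x_at read 4.63 and 4.54 in T47D shCtrl, 5.11 and 5.40 in T47D shXBP1, 9.68 and 9.72 in MDA-MB-231 shCtrl, and 8.79 and 8.58 in MDA-MB-231 shXBP1. The groups did not overlap in either line. The shXBP1 arrays differed by 0.67 (SE 0.12) for T47D and by -1.01 (SE 0.12), 2.02-fold lower, for MDA-MB-231, where CXCL8 ranked 19645 of 19775 from the largest rise. Probe set 211506_s_at read 8.02 and 7.97 and then 6.92 and 6.74 in MDA-MB-231, a difference of -1.16 (SE 0.17). In T47D that probe set read 4.15 and 4.43 and then 4.18 and 4.63, with overlap and a difference of 0.11 (SE 0.17), so the higher value in T47D rests on 1 of 2 probe sets, and the call ended when probe sets were averaged (0.39). Even after the fall in MDA-MB-231, CXCL8 stood at the 81.4 percentile of probe sets there, against the 39.3 percentile in T47D shXBP1.

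CXCL2 and CXCL3 had the same signs as CXCL8 with smaller sizes. CXCL2 (209774_x_at) read 5.01 and 5.57 in T47D shCtrl, 5.51 and 5.78 in T47D shXBP1, 9.71 and 9.90 in MDA-MB-231 shCtrl, and 9.39 and 9.55 in MDA-MB-231 shXBP1. Its differences of 0.35 in T47D and -0.34 in MDA-MB-231 (SE 0.19 each) were not called, although the MDA-MB-231 groups did not overlap. The first was called at 0.63 without T47D shCtrl replicate 2, and the second at -0.32 with the mean over probe sets. A dimmer probe set (1569203_at) read 5.65 and 5.58 and then 4.94 and 4.84 in MDA-MB-231, a difference of -0.73 (SE 0.10) that was called lower. The third (230101_at) stayed between 3.76 and 4.11 on all arrays.

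CXCL3 read 5.45 and 5.96 in T47D shCtrl and 6.38 and 6.25 in T47D shXBP1, a difference of 0.61 (SE 0.18) that was called higher. That call did not survive leaving out T47D shCtrl replicate 1, which gave 0.36, nor leaving out either T47D shXBP1 or either MDA-MB-231 shXBP1 array. It also ended in the fit on the T47D arrays alone and with the replicate number as a block. In MDA-MB-231, CXCL3 read 7.58 and 7.29 and then 7.25 and 7.07, a difference of -0.27 (SE 0.18) that was not called. CXCL1 was dim everywhere, at 4.78 to 4.96 in T47D and 4.25 to 4.56 in MDA-MB-231, with differences of 0.07 and 0.15. CXCL1, CXCL2 and CXCL3 are close copies of one another, so probes of 1 gene may take up RNA of another, most of all in probe sets marked _x_at or _s_at, and their separate levels are uncertain to that extent.

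CXCL16 was brighter in T47D than in MDA-MB-231, the reverse of CXCL2, CXCL3 and CXCL8. It read 8.72 and 8.64 in T47D shCtrl, 9.02 and 9.23 in T47D shXBP1, 6.55 and 5.92 in MDA-MB-231 shCtrl, and 5.67 and 5.94 in MDA-MB-231 shXBP1. Its T47D groups did not overlap and its MDA-MB-231 groups did. The differences of 0.45 in T47D and -0.43 in MDA-MB-231 (SE 0.20 each) were not called. The T47D difference was called when the T47D arrays were fitted alone or when either MDA-MB-231 shCtrl array was left out. The MDA-MB-231 difference was -0.11 without MDA-MB-231 shCtrl replicate 1 and -0.74 without replicate 2, where it was called. CCL2 read between 4.40 and 5.14 and CCL20 between 4.57 and 5.66 on the 8 arrays, under the median of all probe sets throughout. CCL20 had differences of 0.47 (SE 0.21) in T47D, without overlap, and 0.14 in MDA-MB-231, and CCL2 of -0.02 and -0.22, none of them called, except that CCL20 in T47D was called without T47D shCtrl replicate 2 (0.75).

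A gene was called where the limma fit over all 19775 genes gave a Benjamini-Hochberg adjusted p under 0.05. In T47D, 2 of 10 members were called higher (CXCL3 and CXCL8) and 0 lower, where 29.1% of all genes were called, 15.5% higher and 13.5% lower. In MDA-MB-231, 2 of 10 were called higher (CCL5 and CXCL11) and 1 lower (CXCL8), where 17.2% of all genes were called, 10.6% higher and 6.68% lower. The members had a median difference of 0.21 in T47D and of -0.11 in MDA-MB-231, against -0.02 and 0.03 over all genes. Of the 16 probe sets, 2 were called in T47D and 8 in MDA-MB-231, where 24.3% and 15.8% of all probe sets were called. The arrays of the groups did not overlap for 5 of 10 members in each line, against 64.1% of all genes in T47D and 54.5% in MDA-MB-231. Since the members were picked with these values known, nothing is read from the counts.

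**Figure D2:**
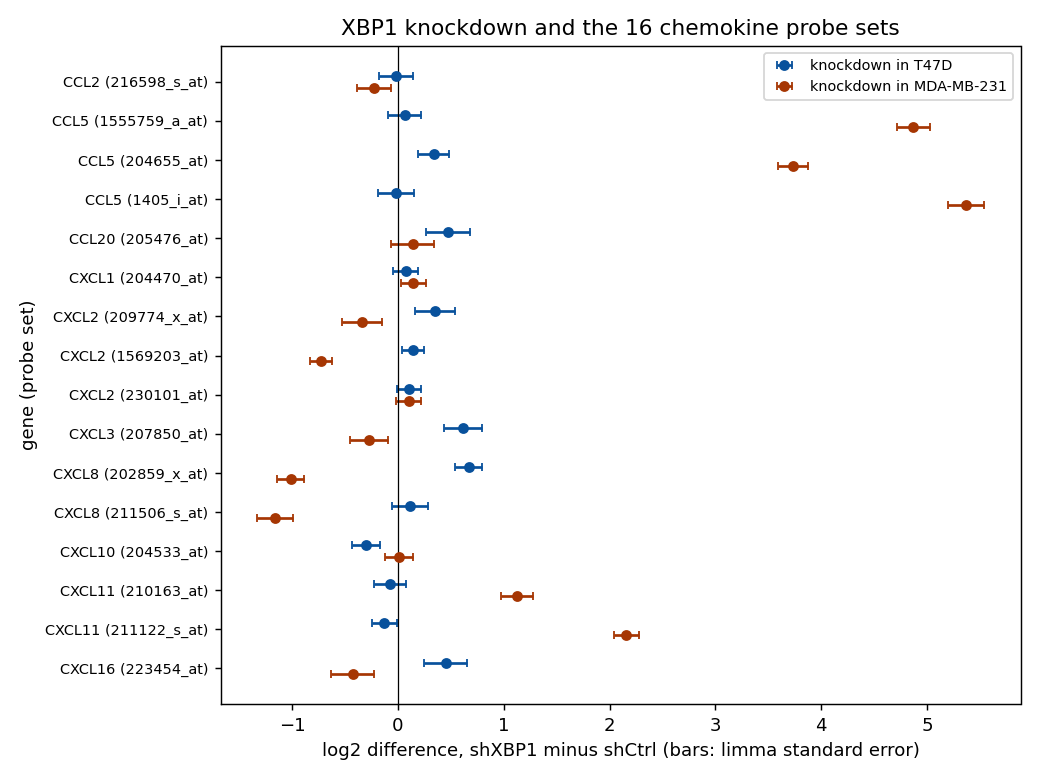
Log2 difference between shXBP1 and shCtrl for each of the 16 chemokine probe sets in T47D and in MDA-MB-231, with bars of 1 limma standard error from 2 arrays per group. The 3 CCL5 probe sets lie between 3.73 and 5.37 in MDA-MB-231 and near 0 in T47D, and both CXCL8 probe sets lie below -1 in MDA-MB-231.

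The knockdown difference in MDA-MB-231 less that in T47D was taken for each member from the same fit, as a description. It was 4.81 (SE 0.22) for CCL5, 1.20 (SE 0.21) for CXCL11, -1.68 (SE 0.17) for CXCL8 and -0.89 (SE 0.25) for CXCL3, and these 4 of 10 were called, where 24.8% of all genes were, 13.0% higher and 11.8% lower. Of the 16 probe sets, 9 were called, where 21.1% of all probe sets were. The CXCL3 call ended with the replicate block and when any of 6 arrays was left out. CXCL16 at -0.88 (SE 0.28) and CXCL2 at -0.69 (SE 0.27) had differences of like size to CXCL3 and were not called. CXCL16 was called with either filter on dim genes, with trend and robust moderation and without MDA-MB-231 shCtrl replicate 2 (-1.19). CXCL2 was called with the replicate block, with trend and robust moderation, with the mean over probe sets (-0.52) and without T47D shCtrl replicate 2 (-0.97).

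Several members differed strongly between the lines under the control hairpin. This comparison, MDA-MB-231 shCtrl against T47D shCtrl, was not the one that singled out the members, but it shares the control arrays with both knockdown comparisons. The choice of members is therefore not independent of it, and each adjusted p is given as an output of the limma fit. CXCL8 was higher in MDA-MB-231 by 5.12 (SE 0.12), 34.7-fold, with a limma adjusted p of 4.47e-08. CXCL2 was higher by 4.52 (SE 0.19), 22.9-fold (adjusted p = 5.92e-07), and CXCL3 by 1.73 (SE 0.18), 3.31-fold (adjusted p = 8.11e-05). These are values of the brightest probe sets, and the sizes depend on the probe set. For CXCL2, 1569203_at gave 1.22 (2.33-fold, called) and 230101_at gave 0.10 (not called). The CXCL2 difference was as low as 1.94 under the alternatives. For CXCL8, 211506_s_at gave 3.70 (13.0-fold, called). CXCL16 was lower, with a difference of -2.44 (SE 0.20), 5.44-fold (adjusted p = 2.13e-05), and CXCL1 was slightly lower, at -0.53 (adjusted p = 0.00422).

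That made 3 members higher and 2 lower of 10, where 49.0% of all genes were called, 23.7% higher and 25.2% lower, so the share is near the background. Of the 16 probe sets, 8 were called, against 44.4% of all probe sets, and the arrays did not overlap for 7 of 10 members, against 71.0% of all genes. Among the neutrophil attractants, CXCL1 had the opposite sign to CXCL2, CXCL3 and CXCL8. It was dim, at 4.87 and 4.78 in T47D shCtrl and 4.25 and 4.34 in MDA-MB-231 shCtrl, under the median of all probe sets. Such levels cannot be told apart from background, so the sign of CXCL1 is uncertain. CCL5 differed by 0.19 with an adjusted p of 0.353, CCL2 by -0.28 (adjusted p = 0.196; -0.48 and called without MDA-MB-231 shCtrl replicate 1), CCL20 by -0.41 (adjusted p = 0.149; -0.68 and called without T47D shCtrl replicate 1), CXCL10 by -0.02 (adjusted p = 0.925) and CXCL11 by 0.18 (adjusted p = 0.386). For CCL5, the probe set 204655_at alone was called, 0.78 higher in MDA-MB-231 (adjusted p = 0.00232 over all probe sets, SE 0.15), and the mean of its probe sets was called too (0.47).

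By level of the brightest probe set, CXCL2, CXCL3 and CXCL8 shared an order of groups, from the top MDA-MB-231 shCtrl, MDA-MB-231 shXBP1, T47D shXBP1 and T47D shCtrl. Neighbours in that order did not overlap, except the T47D groups of CXCL2. For CXCL16 the T47D groups led, shXBP1 above shCtrl, and the MDA-MB-231 groups overlapped.

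Most other chemokine genes were dim and did not pass the test. The gene lists below, like the members, were chosen with earlier results of these data known. Genes are named from them mainly because they were called in a comparison. Their counts are therefore a description, and each adjusted p is given as an output of the limma fit. Of 28 measured ligands outside the members, 1 rose after knockdown in T47D and 1 in MDA-MB-231, with 0 lower in either, where 29.1% and 17.2% of all genes were called. Their median difference, -0.04 in T47D and 0.01 in MDA-MB-231, was close to the -0.02 and 0.03 of all genes. CXCL12, the ligand of CXCR4 and ACKR3, rose in T47D by 0.47 (SE 0.13, adjusted p = 0.0277), from a mean of 10.6 to 11.1. The call ended when any 1 of the 4 T47D arrays was left out, with adjusted p from 0.0636 to 0.163. CXCL12 was 74.9-fold lower in MDA-MB-231 shCtrl than in T47D shCtrl (adjusted p = 2.68e-08), at a mean of 4.40, and read 4.11 after knockdown there.

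CCL26, an eosinophil attractant, rose by 0.70 in MDA-MB-231 (SE 0.11, adjusted p = 0.00536) and only to a mean of 4.72, and both filters on dim genes left no ligand called in that line. CCL28, an epithelial chemokine, was lower in MDA-MB-231 shCtrl than in T47D shCtrl by 1.06 log2 units (a difference of -1.06, adjusted p = 0.000437). CXCL5, another CXCR2 ligand, was called higher there by 0.31 (adjusted p = 0.0401), but that call ended under 10 of the alternatives, among them the replicate block.

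Among 21 measured chemokine receptors, CXCR4 and ACKR3 rose in T47D and fell in MDA-MB-231. CXCR4 rose by 1.00 (SE 0.11, adjusted p = 0.000442) in T47D and fell by 0.77 on the log2 scale (SE 0.11, adjusted p = 0.00325) in MDA-MB-231, where its control level was 10.4-fold higher. ACKR3, a scavenging receptor for CXCL12, rose by 1.43 (SE 0.13, adjusted p = 0.000181) in T47D, or 0.85 averaged over probe sets. Its difference in MDA-MB-231 was -0.46 (adjusted p = 0.0463), a call that ended when probe sets were averaged (-0.12, adjusted p = 0.452) or when any array but MDA-MB-231 shCtrl replicate 2 was left out. CCRL2, which binds the chemoattractant chemerin, rose by 0.68 in MDA-MB-231 (SE 0.14, adjusted p = 0.0138), and lost the call without MDA-MB-231 shCtrl replicate 1 or shXBP1 replicate 2.

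In all, 2 of 21 receptors were higher and 0 lower in T47D, against 15.5% and 13.5% of all genes, and 1 was higher and 2 lower in MDA-MB-231, against 10.6% and 6.68%. The MDA-MB-231 count was 1 in place of 3 without MDA-MB-231 shCtrl replicate 1 or shXBP1 replicate 2. The receptors given above for the members, CCR1, CCR2, CCR6, CXCR1, CXCR2, CXCR3 and CXCR6, were not called in any comparison. These receptors are named here for their ligands rather than by the rule for named genes, and other receptors that may bind a member are not covered. CCR1 ranged from 4.32 to 4.93 over the 8 arrays, CCR2 from 4.31 to 5.09, CCR6 from 3.62 to 4.22, CXCR2 from 3.46 to 3.89 and CXCR6 from 5.56 to 6.13. CXCR1, at 6.70 to 7.07, and CXCR3, at 6.42 to 7.24, were somewhat above the median of all probe sets without a difference that passed.

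**Figure D3:**
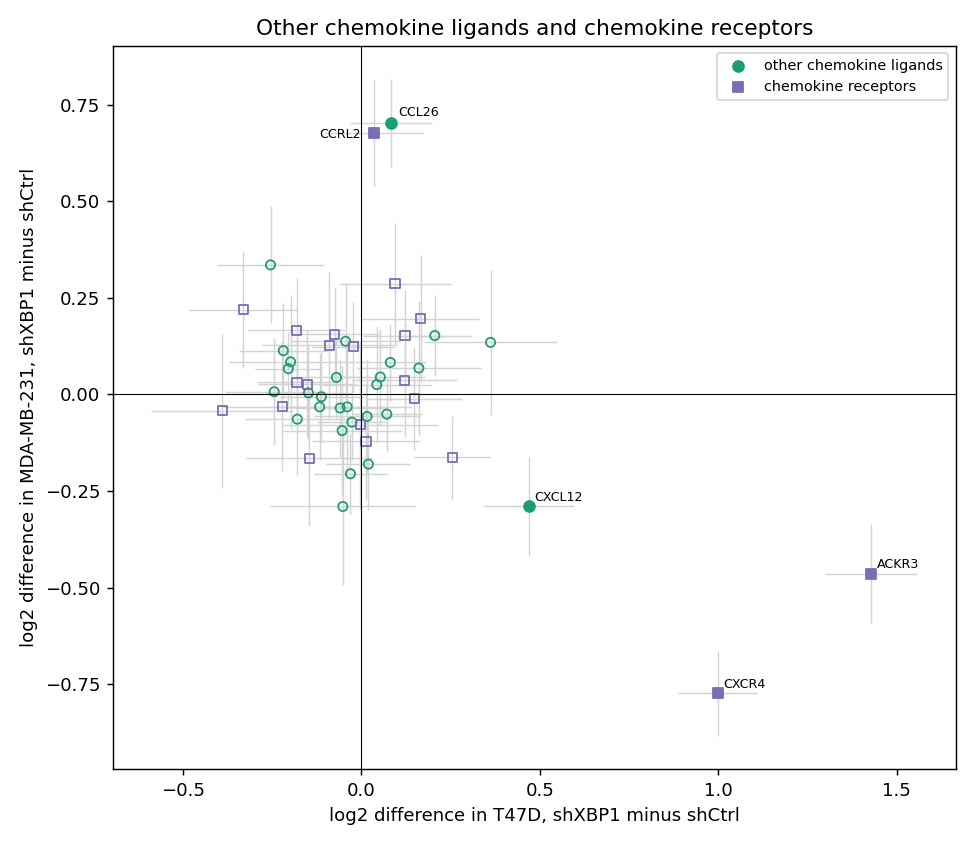
Log2 difference after XBP1 knockdown in T47D (horizontal) against that in MDA-MB-231 (vertical) for 28 other chemokine ligands and 21 chemokine receptors, with limma standard errors; filled symbols passed the test in at least 1 line. CXCR4 and ACKR3 lie at 1.00 and 1.43 in T47D and at -0.77 and -0.46 in MDA-MB-231, and most other genes lie near 0.

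The NF-kB and AP-1 regulators, which include transcription factors and inhibitors that act on chemokine promoters, were called higher more often than lower in T47D. As this list too was chosen with earlier results known, nothing is read from its counts. Of 19 measured, 10 were higher and 1 lower in T47D, with a median difference of 0.43, where 15.5% of all genes were higher and 13.5% lower. In MDA-MB-231, 6 were higher and 0 lower, with a median of 0.11, where 10.6% and 6.68% of all genes were. TNFAIP3 (A20) and NFKBIA (IkB-alpha), feedback inhibitors of NF-kB, rose in T47D by 1.04 (SE 0.11, adjusted p = 0.000359) and 0.78 (SE 0.10, adjusted p = 0.000819). Their differences in MDA-MB-231 were -0.26 and -0.27 and did not pass, and the difference between lines did pass, at -1.30 and -1.05. Averaged over its probe sets, NFKBIA rose by 0.31 in T47D and its difference between lines was -0.48, both still called. RELB, an NF-kB subunit, rose in T47D by 0.79 (SE 0.12, adjusted p = 0.00165) and differed by 0.38 in MDA-MB-231 without passing.

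The AP-1 subunit JUN rose in both lines, by 1.03 (adjusted p = 0.000244) and 0.62 (adjusted p = 0.00535). FOS fell by 1.05 (adjusted p = 0.000143) in T47D and rose by 0.43 (adjusted p = 0.0164) in MDA-MB-231, the latter lost without MDA-MB-231 shCtrl replicate 1 or shXBP1 replicate 2. NFKBIZ, an atypical IkB protein that acts in the nucleus, rose by 0.87 (adjusted p = 0.00408) in T47D and 0.95 (adjusted p = 0.0055) in MDA-MB-231, where the mean over its probe sets gave 0.10.

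Of 21 measured regulators of the interferon response, 14 were not called in each line. In T47D 6 were higher and 1 lower, with a median of 0.13, where 15.5% and 13.5% of all genes were, so that the share called is near the background of 29.1%. The T47D count of 7 fell to 4 without either T47D shCtrl array. In MDA-MB-231 again 6 were higher and 1 lower, with a median of 0.25, where 10.6% and 6.68% of all genes were, and that count was 11 with the mean over probe sets. Double-stranded RNA sensors had the largest differences of the list in MDA-MB-231. IFIH1 (MDA5) rose there by 1.71 (SE 0.13, adjusted p = 0.00023), TLR3 by 1.69 (SE 0.10, adjusted p = 0.000132) and RIGI by 1.29 (SE 0.10, adjusted p = 0.000237). In T47D, TLR3 rose by 1.13 (adjusted p = 0.000167; 0.71 averaged over probe sets) and IFIH1 by 0.54 (adjusted p = 0.0136, lost without T47D shXBP1 replicate 2 or either T47D shCtrl array), while RIGI differed by -0.12 without passing.

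Averaging over probe sets lowered the RIGI rise to 0.52 and the IFIH1 and TLR3 rises to 1.11 and 1.00 in MDA-MB-231, all still called, and ended the IFIH1 call in T47D (0.35). The transcription factors IRF1 and IRF2 rose by 1.02 and 1.06 in T47D (adjusted p = 0.000996 and 0.00056) and by 0.82 and 0.63 in MDA-MB-231 (adjusted p = 0.0055 and 0.0124), the last lost without MDA-MB-231 shCtrl replicate 2 or shXBP1 replicate 1. IFNGR1, a chain of the interferon-gamma receptor, rose in T47D by 0.90 (adjusted p = 0.000554) and differed by 0.35 in MDA-MB-231 without passing.

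Of 12 cytokines and receptors that can induce chemokines, 4 were higher and 0 lower in T47D, and 2 were higher and 2 lower in MDA-MB-231. The shares called over all genes were 29.1% and 17.2%, so the T47D count is near its background. IL6 rose by 1.41 in MDA-MB-231 (SE 0.10, adjusted p = 0.000212), from a mean of 9.87 to 11.3, and differed by 0.28 in T47D at a mean near 5, without passing. TNF rose in T47D by 0.84 (SE 0.15, adjusted p = 0.00406) and differed by -0.07 in MDA-MB-231. IL1R1 rose in T47D by 1.20 (SE 0.17, adjusted p = 0.00147), or 0.67 averaged over probe sets, and its call in MDA-MB-231, at 0.66 (adjusted p = 0.0357), ended under 10 alternatives, among them leaving out any array but MDA-MB-231 shCtrl replicate 2. IL1RAP, its co-receptor, rose by 0.91 (adjusted p = 0.000216) in T47D and fell by 0.84 (adjusted p = 0.000779) in MDA-MB-231. IL6R rose by 1.13 (adjusted p = 0.000382) in T47D, and IL6ST (gp130), the shared signalling chain, fell by 0.53 (adjusted p = 0.00824) in MDA-MB-231.

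**Figure D4:**
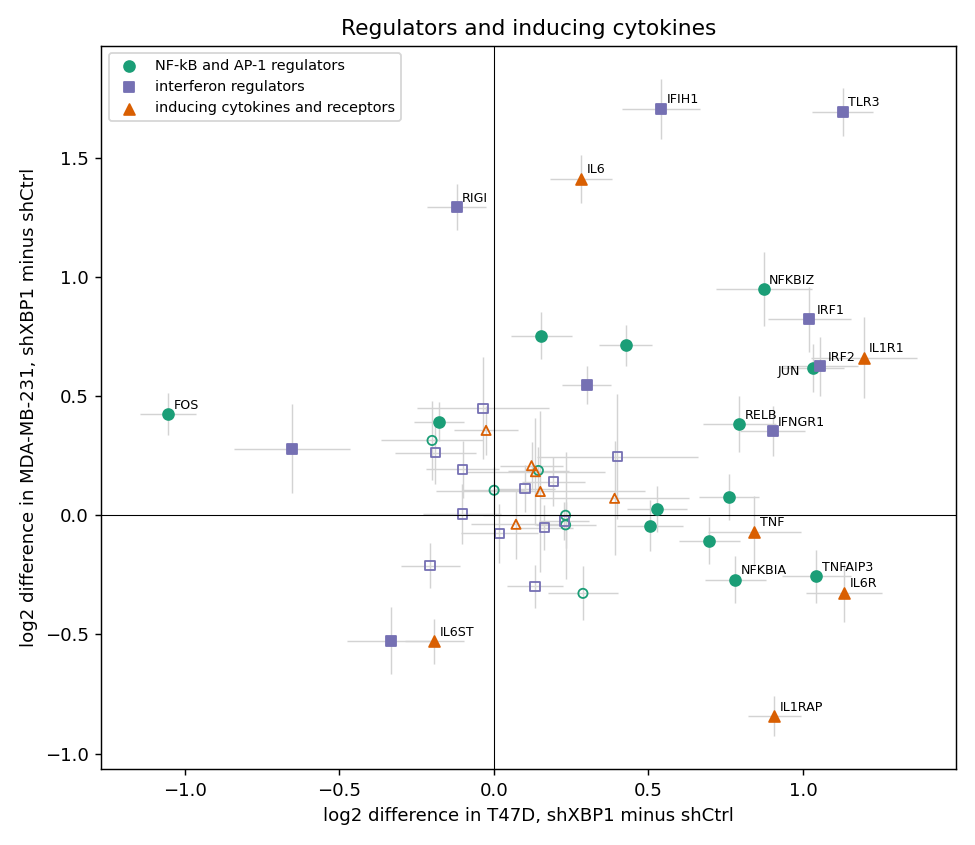
Log2 difference after XBP1 knockdown in T47D (horizontal) against that in MDA-MB-231 (vertical) for NF-kB and AP-1 regulators, interferon regulators and chemokine-inducing cytokines with their receptors, with limma standard errors; filled symbols passed the test in at least 1 line. IFIH1, TLR3, RIGI and IL6 lie highest in MDA-MB-231, between 1.29 and 1.71, while TNFAIP3 and NFKBIA lie at 1.04 and 0.78 in T47D and below 0 in MDA-MB-231.

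Of 16 measured genes for chemokine cleavage and mRNA decay, 4 were higher and 2 lower in T47D, where 15.5% and 13.5% of all genes were, and 4 higher and 3 lower in MDA-MB-231, where 10.6% and 6.68% were. ZFP36 (tristetraprolin), which binds AU-rich elements and speeds mRNA decay, rose by 2.01 (SE 0.18, adjusted p = 0.000166) in T47D and 1.86 (SE 0.18, adjusted p = 0.000614) in MDA-MB-231. ZFP36L2, a relative, rose by 0.99 (adjusted p = 0.00058; 0.63 averaged over probe sets) in T47D and differed by 0.02 in MDA-MB-231. KHSRP, another decay-promoting factor, fell by 0.75 (adjusted p = 0.000704) in T47D and by 0.71 in MDA-MB-231 (adjusted p = 0.00224). Averaged over its probe sets the T47D difference was -0.35, still called.

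ELAVL1 (HuR), which stabilises such mRNAs, rose by 1.06 (adjusted p = 0.000313) in MDA-MB-231, a call that ended when probe sets were averaged (0.12, adjusted p = 0.467). The proteases ADAM10 and ADAM17 can release CXCL16 from the membrane. ADAM10 rose by 0.91 (adjusted p = 0.00082; 0.57 averaged over probe sets) in MDA-MB-231 and differed by 0.26 in T47D without passing. ADAM17 rose by 1.14 (adjusted p = 0.000102) in T47D, and its 0.31 in MDA-MB-231 (adjusted p = 0.0496) was lost under 10 alternatives, among them leaving out any of the 8 arrays.

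Genes with a profile most like that of a member were found by the root-mean-square (RMS) difference between log2 profiles over the 8 arrays, each centred on its own mean. For CCL5, with a range of 5.24, these were the heat shock protein gene HSPA6 at an RMS of 0.448, MFAP5 at 0.576, RASD1 at 0.605, MLKL at 0.662, GBP3 at 0.669 and IL7R at 0.842. HSPA6 was the most variable of them, at 7.96 and 9.12 in MDA-MB-231 shCtrl and 13.74 and 12.23 in MDA-MB-231 shXBP1. IL7R, by contrast, read 6.63 and 6.73 and then 9.81 and 9.79. It was 4.73-fold higher in MDA-MB-231 shCtrl than in T47D shCtrl, given as a description since these arrays were used to find it.

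For CXCL8, with a range of 5.19, the nearest profiles were LIFR at 0.252, F3 (tissue factor) at 0.270 and ABCC2 at 0.311. F3 read 10.25 and 10.03 in MDA-MB-231 shCtrl and 9.80 and 9.56 in MDA-MB-231 shXBP1. Under the control hairpin LIFR, F3 and ABCC2 were 27.2-fold, 25.1-fold and 24.2-fold higher in MDA-MB-231 than in T47D. For CXCL10, with a range of only 0.478, the nearest were CACNA1I, DDX56 and GRK1 at 0.0493, 0.0519 and 0.0526, which says little more than that all are nearly flat. These distances are descriptions over 8 arrays.

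**Figure D5:**
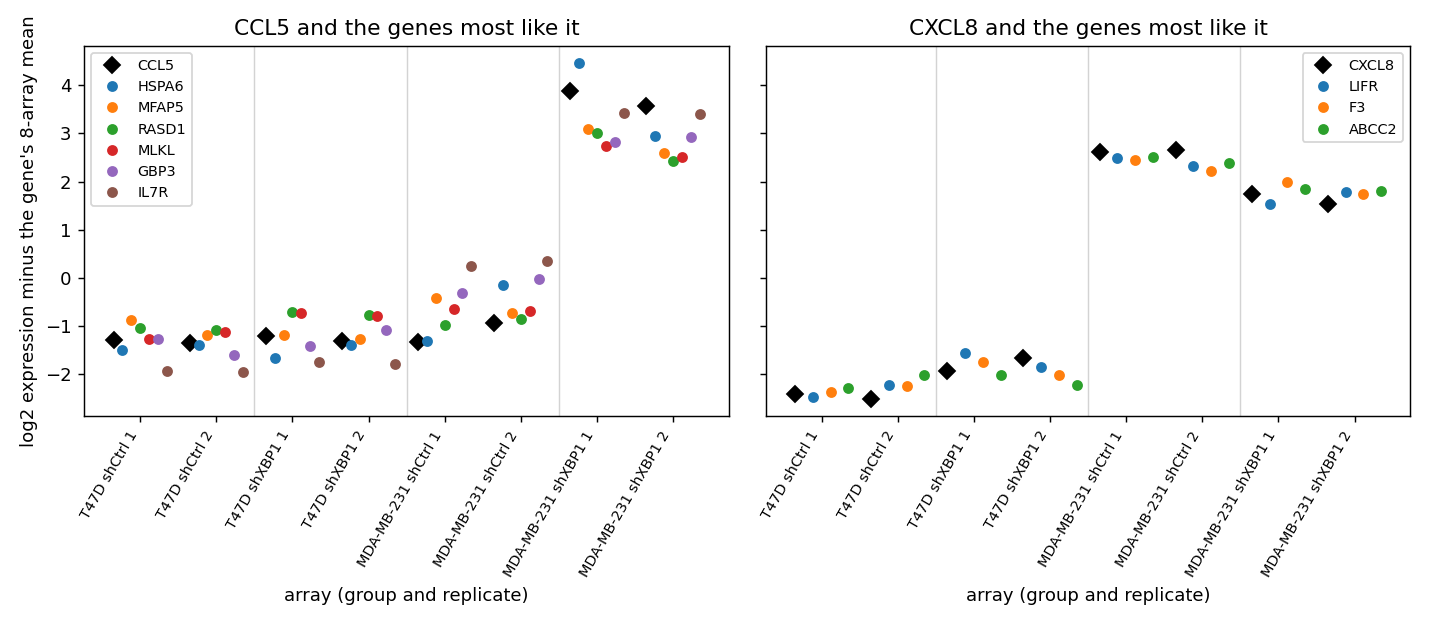
Log2 expression minus each gene's own mean over the 8 arrays, for CCL5 (left) and CXCL8 (right, black diamonds) and the genes with the nearest profiles (coloured points), with arrays along the horizontal axis in their 4 groups. The CCL5 set is high on the 2 MDA-MB-231 shXBP1 arrays, and the CXCL8 set is high on all 4 MDA-MB-231 arrays and lower in shXBP1 than in shCtrl.

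Neighbouring genes in the RefSeq order of GRCh38.p14 were looked at in addition, 3 on each side, outside the rule for named genes and after the member values were seen. Around CCL5 on chromosome 17, TAF15 rose by 0.88 in MDA-MB-231 (SE 0.11, adjusted p = 0.00181) and in T47D by 0.39 (adjusted p = 0.0324), and the other 5, C17orf50, HEATR9, RDM1, LYZL6 and CCL16, had differences from -0.34 to 0.40 in MDA-MB-231 that did not pass. The large difference at CCL5 was thus not matched by the genes beside it. Around CXCL10 and CXCL11 on chromosome 4, CXCL9 differed by -0.01 in MDA-MB-231 and ART3 by -0.15, without passing, while SDAD1 fell by 0.57 (adjusted p = 0.00372) and SCARB2 by 0.35 (adjusted p = 0.0357).

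CXCL8, CXCL1, CXCL3 and CXCL2 lie in that order along chromosome 4, with CXCL6, PF4V1, PF4, PPBP and CXCL5 between them. None of those 5 was called after knockdown in either line, and their MDA-MB-231 shCtrl means ran from 3.36 to 6.51. MTHFD2L, the next gene after CXCL2, fell by 0.85 (adjusted p = 0.00117) in T47D and 1.03 (adjusted p = 0.00115) in MDA-MB-231. EREG, which encodes the growth factor epiregulin and is the third gene after CXCL2, rose by 3.46 in T47D (adjusted p = 7.54e-05) and differed by 0.13 in MDA-MB-231 without passing. Of the remaining neighbours, AFM near CXCL8 rose by 0.50 (adjusted p = 0.0331) and DAW1 beside CCL20 by 0.61 (adjusted p = 0.0357) in MDA-MB-231, TMEM98 near CCL2 fell by 1.13 in T47D (adjusted p = 0.00237), and MED11 beside CXCL16 rose in both lines, by 0.47 (adjusted p = 0.0143) for T47D and 0.57 (adjusted p = 0.0115) for MDA-MB-231.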

How the data were processed

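Total RNA from 8 samples was measured on an Affymetrix expression array with 54675 probe sets. The authors' deposited table holds log2 values, made with RMA and affy 1.30.0 per the submitters' processing notes. The arrays that were normalized jointly are not given in the sources used here. Probe sets were named through the platform annotation, checked against RefSeq gene identifiers, and 41091 with a single symbol were kept. The brightest probe set stood for each of 19775 genes. RMA pulls low values together, so folds of dim genes are understated, and the number of arrays limits the precision (median SE of a knockdown difference 0.119).

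Groups were compared with limma 3.58.1 in R 4.3.3 (lmFit and eBayes, 4 group means, all 8 arrays, 4 residual degrees of freedom, two-sided), with Benjamini-Hochberg adjustment over all genes, or over all single-symbol probe sets where stated, and a threshold of 0.05. With 2 arrays a side, the smallest p that exact permutation can reach is 0.333. The scripts were tested on simulated data.

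The members and gene lists were chosen with earlier results of these data known. From each list, genes called in any comparison were named, at most 6, by their largest knockdown difference. Alternatives were the arrays fitted, the mean over probe sets, each probe set on its own, trend and robust moderation, 2 filters on dim genes, repeated quantile normalization, the replicate number as a block, and leaving out each array.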

Additional observations from a re-analysis of the deposited data

Results flagged for a closer look

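The following genes differed between the lines in their response to the XBP1 hairpin, given as the log2 knockdown difference in MDA-MB-231 less that in T47D, each past the limma threshold except where stated. There were 34 such genes among the 54 named, where 24.8% of all genes were called for this difference. For 14 of them all arrays of one line moved up and all of the other moved down, a share not computed over all genes. Most of the 54 were named because they were called in a comparison or had a profile like that of a member. Nothing is therefore read from these counts.

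Among the members, where the values are a description, the difference was 4.81 for CCL5, 1.20 for CXCL11, -1.68 for CXCL8 and -0.89 for CXCL3. XBP1 itself differed by 1.30, having fallen further in T47D. Among other ligands and receptors it was 0.62 for CCL26, -0.76 for CXCL12, -1.89 for ACKR3, -1.77 for CXCR4 and 0.64 for CCRL2.

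Among NF-kB and AP-1 regulators it was 1.48 for FOS, -1.30 for TNFAIP3 and -1.05 for NFKBIA. Among interferon regulators it was 1.17 for IFIH1, 0.57 for TLR3, 1.42 for RIGI and -0.55 for IFNGR1. Among cytokines and their receptors it was 1.13 for IL6, -1.46 for IL6R, -1.75 for IL1RAP and -0.91 for TNF. Among genes of cleavage and mRNA decay it was -0.83 for ADAM17, 1.29 for ELAVL1, -0.97 for ZFP36L2 and 0.65 for ADAM10.

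Genes named for a profile like that of CCL5 differ by the way they were found, with 4.53 for HSPA6, 3.62 for MFAP5, 3.30 for RASD1, 2.87 for MLKL, 2.87 for GBP3 and 2.95 for IL7R. The same holds for those like CXCL8, with -1.40 for LIFR, -0.89 for F3 and -0.66 for ABCC2. GRK1 moved in opposite directions in the lines on all arrays, and its difference of 0.46 did not pass (adjusted p = 0.135). The differences of ABCC2, CCL26, CCRL2, CXCL3, CXCL12, F3, IFNGR1, RIGI, TLR3 and TNF lost the threshold under at least 1 alternative.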

How the results depend on the processing

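Of 550 values of member genes under the alternatives other than each probe set on its own, 516 kept their direction and their side of the threshold, 15 lost a call, 19 gained one and 0 reversed. Under these, the knockdown difference of CCL5 in MDA-MB-231 ran from 4.66 to 5.06 and that of CXCL8 from -1.12 to -0.91, called under 15 of 15 each. CXCL11 ran from 0.94 to 1.64, called under 13 of 13, and both filters on dim genes leave it out. By single probe set, these differences ran from 3.73 to 5.37 for CCL5, -1.16 to -1.01 for CXCL8 and 1.12 to 2.16 for CXCL11, all called. Members called in T47D were 2, and 1 with the mean over probe sets. Counted by probe set, 8 were called for the lines, 9 for the difference of the effects and 8 in MDA-MB-231. Without any 1 array, members called ran from 1 to 4 in T47D, 3 to 4 in MDA-MB-231, 3 to 5 for the difference and 5 to 6 for the lines. Gene counts by probe set were 9969 in T47D, 6504 in MDA-MB-231, 8689 for the difference and 18253 for the lines, since more features were tested. With only the 4 MDA-MB-231 arrays, 1897 genes were called, and without any 1 array 2063 to 2931 against 3410, lowest without MDA-MB-231 shCtrl replicate 1 and next without shXBP1 replicate 1 (2152); the cause was not tested. The RIGI line difference reversed from 0.19 to -0.40 with the mean over probe sets. Of 354 recomputed counts of the gene lists, again without each probe set on its own, 326 stayed within 1.5 times. No alternative with 1 value per gene moved the median of all genes by over 0.1. Same-numbered samples share only a number (correlations of deviations -0.069 to 0.038), and with the replicate block 1 member was called in T47D (CXCL3 lost its call there and for the difference of the effects, where CXCL2 gained one), with 5421 genes there and 2941 in MDA-MB-231. Groups of 2 arrays and the lack of detection calls limit what can be said of dim members.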
